A study of Mus musculus with 8 samples.

Results

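The alpha-arrestin family of the mouse was followed in heart tissue after a single dose of digoxin. Its members were the 6 genes Arrdc1, Arrdc2, Arrdc3, Arrdc4, Arrdc5 and Txnip, taken by symbol from probe sets annotated to exactly 1 gene. All 6 were measured, each by 1 probe set, among 22180 genes in all. The family was selected on the log2 differences between digoxin and vehicle hearts seen earlier on these arrays, so that response is given below as a description and not as a test. The hearts came from wild-type male mice aged 8 to 10 weeks, of strain C57BL6JRj by their sample label and C57BL6/J by the growth protocol. In the digoxin group, 5 mice received 1 mg/kg digoxin into the peritoneum at ZT5, where ZT0 is lights-on. In the vehicle group, 3 mice received the solvent mixture of ethanol, propylene glycol, citric acid and sodium phosphate at the same hour. All hearts were taken at ZT9, 4 hours after injection, and their RNA was read on Affymetrix Mouse Gene 2.0 ST arrays. Digoxin is a cardiac glycoside that inhibits the Na/K-ATPase, and the rodent form of its main catalytic subunit is less sensitive to it than the human one.

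Alpha-arrestins are adaptor proteins that share the fold of the beta-arrestins. Most of them carry PPxY motifs, which bind the WW domains of NEDD4-type ubiquitin ligases and so bring a ligase to a membrane receptor or transporter that is then ubiquitinated and internalised. Txnip, the thioredoxin-interacting protein, also binds reduced thioredoxin and lowers glucose uptake, and its gene is a standard target of the glucose-sensing factors MondoA and ChREBP, which bind DNA together with MLX. In heart muscle, Txnip is known as a brake on glucose uptake and on thioredoxin.

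Each value was read as a log2 expression level set relative to a centre of its own probe set, although the log base is not stated. Such values show differences between arrays and carry no absolute level, so neither the abundance of a member nor the presence of heart markers could be read from them. Precision is limited by the number of arrays. The interquartile range of the vehicle array of replicate 3 was 0.216, against 0.0792 to 0.115 on the other 7 arrays. Of 11 marker lists, the atrial cardiomyocyte list varied most between hearts, with a mean over its 7 markers between -0.43 and 1.79 in digoxin hearts and between 0.27 and 2.33 in vehicle hearts. The lymphocyte marker mean was 0.99 in digoxin replicate 4 and at most 0.11 in any other heart. All 11 marker means overlapped between the groups, and none of the measured markers passed the test described below. The erythroid mean rested on only 1 measured gene of 5 listed, and the neuronal and Schwann mean on 3 of 5. In tissue of mixed cells, fewer cells of a type and less RNA per cell cannot be told apart.

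The promoters of the 4 members with the largest differences between the groups are shown, from the windows searched for motifs below. Each is the 250 bases before the RefSeq start on GRCm38.p6, read 5′ to 3′ on the strand of the gene. Capitals mark matches to CCAAT, or to its reverse complement ATTGG, in all 4. In Txnip they also mark GTAAACA, a forkhead (FOXO-type) motif, and a paired E-box-like match, and in Arrdc4 the E-box CACGTG.
Arrdc2, chr8:70839721-70839970, minus strand: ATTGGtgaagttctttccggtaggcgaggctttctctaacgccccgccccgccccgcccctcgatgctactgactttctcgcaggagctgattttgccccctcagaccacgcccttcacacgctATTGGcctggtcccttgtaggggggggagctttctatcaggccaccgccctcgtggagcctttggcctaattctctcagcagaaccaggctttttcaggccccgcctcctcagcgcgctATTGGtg
Arrdc3, chr13:80883134-80883383, plus strand: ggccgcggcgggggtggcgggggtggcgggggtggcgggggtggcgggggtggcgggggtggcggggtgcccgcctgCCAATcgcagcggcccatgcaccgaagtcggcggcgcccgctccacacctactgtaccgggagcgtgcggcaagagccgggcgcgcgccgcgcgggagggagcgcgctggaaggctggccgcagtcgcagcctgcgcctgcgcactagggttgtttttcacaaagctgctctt
Txnip, chr3:96557707-96557956, plus strand: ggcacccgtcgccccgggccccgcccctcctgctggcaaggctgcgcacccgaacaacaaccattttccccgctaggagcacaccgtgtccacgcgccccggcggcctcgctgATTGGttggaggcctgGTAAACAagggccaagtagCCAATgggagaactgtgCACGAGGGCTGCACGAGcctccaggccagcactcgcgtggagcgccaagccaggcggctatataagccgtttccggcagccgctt
Arrdc4, chr7:68749239-68749488, minus strand: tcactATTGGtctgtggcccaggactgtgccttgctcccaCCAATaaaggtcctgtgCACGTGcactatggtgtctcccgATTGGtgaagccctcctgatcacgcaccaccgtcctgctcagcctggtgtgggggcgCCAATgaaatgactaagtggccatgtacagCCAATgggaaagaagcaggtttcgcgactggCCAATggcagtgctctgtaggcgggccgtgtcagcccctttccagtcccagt

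Arrdc2 and Arrdc3 were much higher in digoxin hearts and Txnip was moderately higher, while Arrdc4 was slightly lower and Arrdc1 and Arrdc5 had overlapping groups. The fitted level in digoxin hearts was 4.07 times the vehicle level for Arrdc2, 2.40 times for Arrdc3 and 1.81 times for Txnip. Only 0.00902% of the 22180 genes had a larger absolute difference than Arrdc2, 0.0857% a larger one than Arrdc3 and 0.234% a larger one than Txnip. In limma, at an adjusted p under 0.05 over all genes, 3 of the 6 members were higher in digoxin hearts and none was lower, beside 0.947% of all genes called higher and 0.415% called lower. At an unadjusted p under 0.05, 3 members were higher and 1 (Arrdc4) was lower, beside 12.3% of all genes in either direction. The groups did not overlap in 4 members, beside 8.16% of all genes. The members were proposed from this contrast, so nothing is read from these counts.

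Arrdc2 encodes one of the less studied members, annotated earlier as Ilad1, and lies on chromosome 8 at 70835129 to 70839720. Its centred log2 values were 1.31, 1.54, 1.67, 1.67 and 1.74 in digoxin replicates 1 to 5, against -0.22, -0.38 and -0.72 in vehicle replicates 1 to 3. Every digoxin heart stood above every vehicle heart, and the gap between the lowest digoxin and the highest vehicle value was 1.53. Digoxin hearts averaged 1.59 ± 0.17 (SD, n = 5), against -0.44 ± 0.25 (SD, n = 3) for vehicle hearts. The fitted difference was 2.03 on the log2 scale (SE 0.13, 95% interval 1.74 to 2.32), and it lay between 1.89 and 2.13 when 1 array was left out.

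Arrdc3 encodes an adaptor known for the ubiquitination of integrin beta-4, and its loss in mice is known to raise energy expenditure. The gene lies on chromosome 13 at 80883384 to 80896042. Its values were 0.93, 0.64, 0.63, 0.81 and 0.71 in digoxin replicates 1 to 5, against -0.45, -0.33 and -0.79 in vehicle replicates 1 to 3. The groups were apart by 0.96, and the highest digoxin value came from replicate 1, the heart that was lowest of its group for Arrdc2. Digoxin hearts averaged 0.74 ± 0.12 (SD, n = 5), against -0.52 ± 0.24 (SD, n = 3) for vehicle hearts, which makes a difference of 1.27 on the log2 scale (SE 0.11, 95% interval 1.02 to 1.51). Without single arrays it lay between 1.13 and 1.36.

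Txnip lies on chromosome 3 at 96557957 to 96561857, inside the RefSeq span of Gm15441, a long non-coding RNA gene. Its own probe set, annotated to Txnip alone, read -0.03, 0.16, 0.18, 0.17 and 0.20 in digoxin replicates 1 to 5, against -0.56, -1.03 and -0.57 in vehicle replicates 1 to 3. The groups did not overlap, with a gap of 0.54. Digoxin replicate 1 was again the lowest of its group, and vehicle replicate 2 was well below the other vehicle hearts. Digoxin hearts averaged 0.14 ± 0.09 (SD, n = 5), against -0.72 ± 0.27 (SD, n = 3) for vehicle hearts, and the fitted difference was 0.85 on the log2 scale (SE 0.11, 95% interval 0.61 to 1.10). It was 0.70 without vehicle replicate 2 and 0.89 without digoxin replicate 1.

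Arrdc4, the member closest to Txnip in its known response to glucose, lay on the other side of 0. It is on chromosome 7 at 68736994 to 68749238. Its values were -0.14, -0.12, -0.17, -0.24 and -0.15 in digoxin replicates 1 to 5, against 0.04, 0.11 and -0.09 in vehicle replicates 1 to 3. The groups did not overlap, but the gap was only 0.03. The fitted difference was -0.19 on the log2 scale (SE 0.05, 95% interval -0.31 to -0.07), which put the vehicle level at 1.14 times the digoxin level. It kept its sign in all 8 fits that left out 1 array, between -0.24 and -0.14, and it did not pass the threshold in any of them. With all arrays it did not pass either, and it passed in 3 of 17 alternatives. Among these were arrays scaled to a common spread (-0.22) and array weights (-0.23). The family was selected on this contrast, so none of these calls is read as a test.

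Arrdc1 encodes the adaptor that, with the ESCRT protein TSG101, drives budding of small vesicles from the plasma membrane. Its gene lies on chromosome 2 at 24925352 to 24935335. The values ran from -0.10 to 0.01 in digoxin hearts and from -0.09 to 0.36 in vehicle hearts, and the highest came from vehicle replicate 3, the array of widest spread. The fitted difference was -0.13 (SE 0.09, 95% interval -0.34 to 0.08), and it was -0.00074 without vehicle replicate 3 and -0.23 without vehicle replicate 1. Arrdc5, a gene known for its role in sperm formation in mice, lies on chromosome 17 at 56294111 to 56300286. It ran from -0.09 to 0.03 in digoxin hearts and from 0 to 0.18 in vehicle hearts, with a difference of -0.09 (SE 0.06, 95% interval -0.22 to 0.04), which was -0.03 without vehicle replicate 3. The intervals of both genes hold 0 and leave out a change of 1.5 times in either direction.

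**Figure D1:**
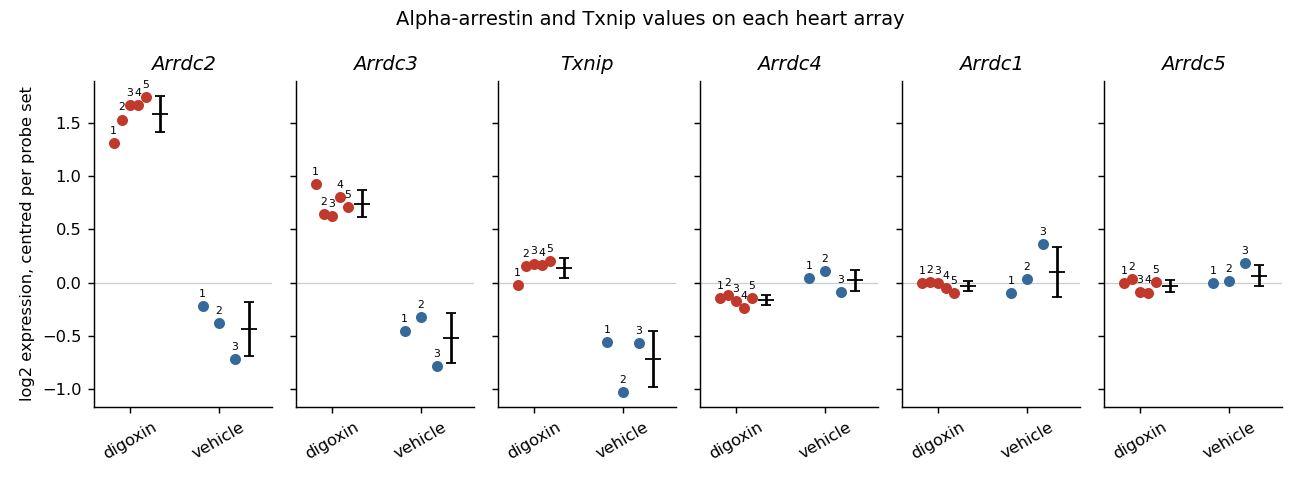
Centred log2 expression of the 6 family genes on each array, with digoxin hearts in red and vehicle hearts in blue. Digits are replicate numbers, and the black bar is the mean with its SD (n = 5 digoxin, n = 3 vehicle). Arrdc2, Arrdc3 and Txnip sit higher in all digoxin hearts than in any vehicle heart, Arrdc4 sits lower by a gap of 0.03, and Arrdc1 and Arrdc5 overlap.

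The 95% interval of Arrdc2 lay above those of the other 5 members, and those of Arrdc3 and Txnip overlapped between 1.02 and 1.10. The intervals of Arrdc1, Arrdc4 and Arrdc5 overlapped each other and lay below that of Txnip. Likeness between members was also measured as the root mean square difference over the 8 arrays, after each gene was set to its own mean. It was 0.34 between Arrdc3 and Txnip and 0.42 between Arrdc2 and Arrdc3, against 0.61 between Arrdc2 and Txnip. It was 0.54 between Txnip and Arrdc4. All these values come from the same 8 arrays and are dominated by the difference between the groups.

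With the atrial marker mean of each array as a covariate, an alternative added after seeing the data, the difference was 2.13 for Arrdc2, 1.35 for Arrdc3 and 0.84 for Txnip. Without digoxin replicate 4 and vehicle replicate 3 together, also chosen later, it was 1.86, 1.12 and 0.92 for the same genes. The signs of Arrdc2, Arrdc3, Txnip, Arrdc4 and Arrdc5 were the same under all 17 alternatives, while Arrdc1 stood at 0.0052 without both of those arrays. The part of atrial or lymphoid tissue in the members' values was not tested beyond these fits.

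**Figure D2:**
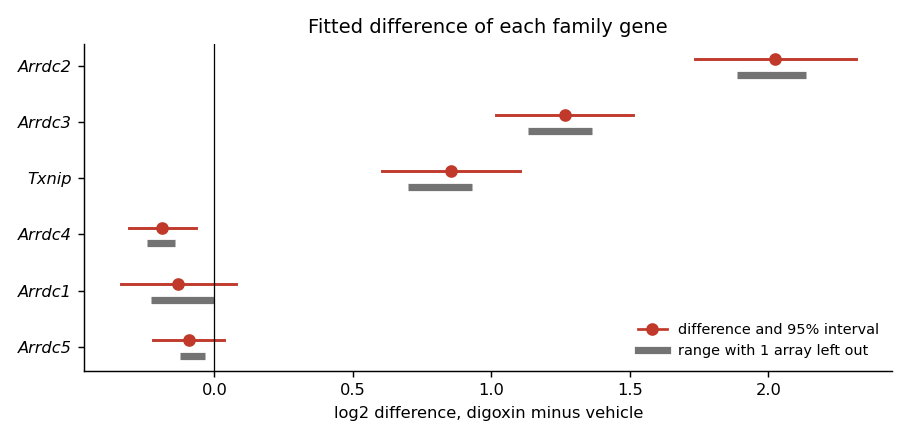
Log2 difference of each family gene, digoxin minus vehicle, on the horizontal axis. Red points and lines are the fitted difference and its 95% interval (5 digoxin and 3 vehicle hearts), and grey bars are the range over the 8 fits that each left out 1 array. The grey bars of Arrdc2, Arrdc3 and Txnip lie within 0.70 to 2.13, well above 0, and those of Arrdc4, Arrdc1 and Arrdc5 lie below it.

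The genes most like each responding member over the 8 arrays were found by the same root mean square difference among 17409 genes, for members that differed by at least 1.5 times. Nearest to Arrdc2 were Fkbp5 (0.181), which binds HSP90 in glucocorticoid receptor complexes, Cdkn1a (0.197), the cell cycle inhibitor p21, and Ddit4 (0.204), an inhibitor of mTORC1. Setdb2 (0.215) and Trp53inp1 (0.239) came next. For scale, Arrdc2 itself had a root mean square of 0.997 about its mean.

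Nearest to Arrdc3 were Zfp36 (0.0994), an RNA-binding protein that destabilises AU-rich messengers, and Errfi1 (0.116), a feedback inhibitor of the EGF receptor. The mitochondrial nucleotide carrier gene Slc25a33 (0.131), Ms4a4a (0.136) and Fam107a (0.139) followed, beside 0.63 for Arrdc3 itself. Zfp36 differed by 1.14 on the log2 scale (SE 0.13) and Errfi1 by 1.04 (SE 0.12), close to the 1.27 of Arrdc3.

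Nearest to Txnip were Plin4 (0.104), which coats lipid droplets, the amino acid transporter gene Slc7a8 (0.14) and Cited2 (0.142), a transcriptional modulator that limits HIF-1. Rgcc (0.146) and Acr (0.161), the gene of the sperm protease acrosin, came after them, beside 0.439 for Txnip itself. Plin4 differed by 0.82 on the log2 scale (SE 0.07), Slc7a8 by 0.78 (SE 0.07) and Cited2 by 0.94 (SE 0.05). The 3 sets of 5 nearest genes shared no gene. The measure follows the size of the group difference, which was unlike in the 3 members, so nothing is read from that. The nearest genes were picked for their likeness in the same contrast, so their differences are descriptions.

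**Figure D3:**
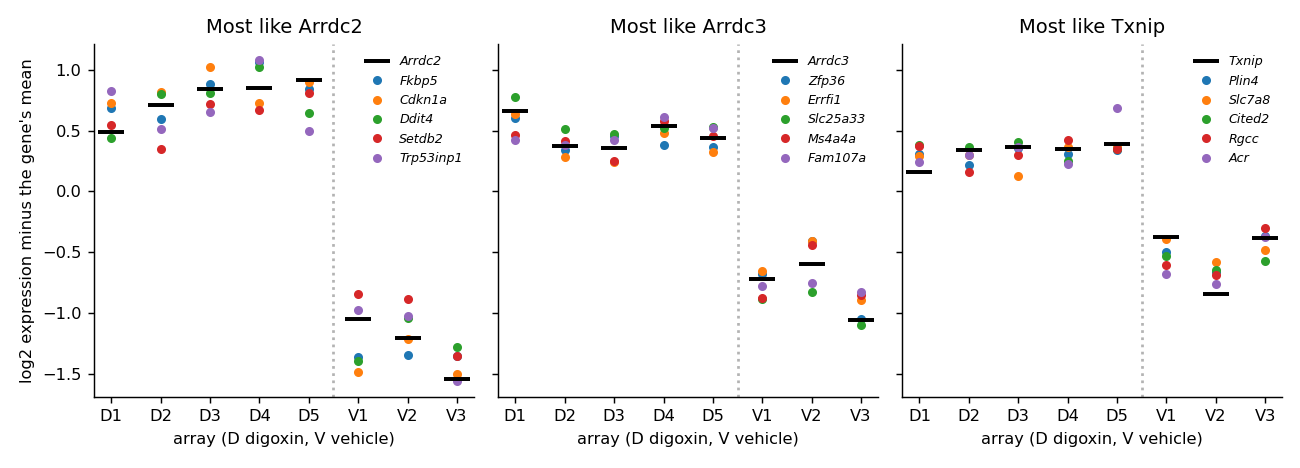
Log2 expression of 3 family genes (black dashes) and of the 5 genes most like each (coloured dots), each gene set to its own mean over the 8 arrays. D marks digoxin and V vehicle hearts by replicate number. For Arrdc2 the nearest gene was Fkbp5 at a root mean square difference of 0.181, for Arrdc3 Zfp36 at 0.0994 and for Txnip Plin4 at 0.104.

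Around the family, 7 lists of partner and regulator genes held 82 genes, of which 75 were measured. In limma with adjustment over all genes, 5 of the 75 rose in digoxin hearts, 1 fell and 69 did not pass. Over all genes 0.947% rose and 0.415% fell. The lists were chosen with earlier results of these data known. The counts over the lists and the p values of their genes are therefore descriptions and not independent tests. The median log2 difference over the 75 genes was 0.06, and over all genes it was -0.01. The groups did not overlap in 10 that were higher and 3 that were lower in digoxin hearts, beside 4.4% and 3.76% of all genes. The medians of the 7 lists lay between -0.03 and 0.10. Without vehicle replicate 3, the array of widest spread, they lay between -0.04 and 0.05, and the median was 0.01 over the 75 genes and -0.0029 over all genes.

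The other arrestin-fold genes stayed within narrow bounds. None of the 8 measured passed in limma, nor at an unadjusted p under 0.05, which 12.3% of all genes reached, and their differences lay between -0.17 and 0.09 with a median of -0.03. The list holds the beta-arrestins, the visual arrestins, the VPS26 subunits of the retromer and its relatives, and Rgp1. Arrb2, the gene of beta-arrestin 2, stood at -0.17 (SE 0.09, adjusted p = 0.494 in limma), and Vps26c at -0.09 (SE 0.05, adjusted p = 0.537 in limma), or -0.04 without vehicle replicate 2. The beta-arrestin 1 gene Arrb1 stood at -0.07 (SE 0.06).

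Among the NEDD4-type ligases and their adaptors, which PPxY motifs recruit, 1 of 11 rose and none fell, with a median of 0.06. Over all genes 0.947% rose and 0.415% fell. The list counts were the same at an unadjusted p under 0.05, beside 12.3% of all genes in either direction. Hecw2 read 0.53, 0.47, 0.52, 0.45 and 0.52 in digoxin replicates 1 to 5, against -0.05, 0 and -0.54 in vehicle replicates 1 to 3. The groups did not overlap, and vehicle replicate 3 lay far below the other vehicle hearts. Its difference was 0.69 (SE 0.11, adjusted p = 0.0221 in limma), and it was 0.52 without vehicle replicate 3. The call ended without digoxin replicate 1, 2, 3 or 5, with a highest adjusted p of 0.0691 in limma without replicate 5. The other 10 ligase and adaptor genes, Nedd4, Itch, Wwp1 and Wwp2 among them, had differences between -0.08 and 0.19.

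None of the 13 ESCRT genes, which sort ubiquitinated cargo and form vesicles, passed in limma. None reached an unadjusted p under 0.05 either, beside 12.3% of all genes. Differences were above 0 in 12 of them, beside 44.4% of all genes, and their median was 0.07. Vehicle replicate 3 was the lowest of the 8 arrays in 9 of the 13 genes, and without it 9 were above 0, beside 48.2% of all genes, with a median of 0.02. Those of smallest p were Stam at 0.16 (SE 0.08, adjusted p = 0.493 in limma) and Vps4b at 0.14 (SE 0.07, adjusted p = 0.495 in limma). Tsg101, the partner of ARRDC1, stood at 0.10 (SE 0.07). Without vehicle replicate 3, Stam and Vps4b both stood at 0.04 and Tsg101 at 0.02.

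Of 9 measured genes of membrane proteins reported as cargo or partners of alpha-arrestins, 1 rose and none fell, with a median of 0.08. Over all genes 0.947% rose and 0.415% fell. At an unadjusted p under 0.05, 2 were higher and 0 lower, beside 12.3% of all genes in either direction. Egfr, the EGF receptor gene, read 0.49, 0.44, 0.34, 0.37 and 0.44 in digoxin replicates 1 to 5, against 0, -0.09 and -0.33 in vehicle replicates 1 to 3. All digoxin hearts were above all vehicle hearts, and the difference was 0.55 (SE 0.08, adjusted p = 0.00985 in limma). The glucose transporter genes, whose proteins Txnip is known to act on, did not pass. Slc2a1 (GLUT1) stood at 0.02 (SE 0.04) and Slc2a4 (GLUT4) at 0.17 (SE 0.07). The other listed genes of this group were not analysed here.

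No gene of the thioredoxin system passed in limma among 9 measured, and the median was 0.06. At an unadjusted p under 0.05, 1 was higher and 1 lower, beside 12.3% of all genes in either direction. Txnrd3, a thioredoxin reductase gene, stood at 0.28 (SE 0.08, adjusted p = 0.175 in limma) with groups that did not overlap, and Srxn1, the sulfiredoxin gene, at -0.20 (SE 0.09, adjusted p = 0.393 in limma). Srxn1 stood at -0.10 without vehicle replicate 3 and at -0.31 without vehicle replicate 2. Txn1, the gene of the thioredoxin that Txnip binds, stood at 0.06 (SE 0.06), and at -0.02 without vehicle replicate 3.

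The MLX network holds the factors that bind E-boxes as dimers with MLX or MAX. Of its 12 genes 2 rose and none fell in limma, beside 0.947% and 0.415% of all genes, and the median was 0.06. At an unadjusted p under 0.05, 4 were higher and 1 lower, beside 12.3% of all genes in either direction. Mxd4, a transcriptional repressor that pairs with MAX, read 0.63, 0.78, 0.70, 0.84 and 0.64 in digoxin replicates 1 to 5, against -0.01, 0.22 and -0.24 in vehicle replicates 1 to 3. The groups were well apart, with a difference of 0.73 (SE 0.10, adjusted p = 0.00971 in limma). Max rose by 0.36 (SE 0.07, adjusted p = 0.0391 in limma), but that call held in only 1 of the 8 fits on 7 arrays, that without vehicle replicate 1, and its highest adjusted p was 0.115 in limma without vehicle replicate 2. Of the factors known to act on Txnip itself, Mlxip (MondoA) stood at 0.34 (SE 0.08, adjusted p = 0.115 in limma), Mlxipl (ChREBP) at 0.08 (SE 0.10) and Mlx at 0.03 (SE 0.07). Mlxip passed with quantile normalization (adjusted p = 0.0445 in limma) and with arrays scaled to a common spread (adjusted p = 0.0489 in limma), and also when the atrial marker mean was a covariate (adjusted p = 0.0399 in limma). Myc was nearer the threshold than Mlxip with all arrays, at 0.41 (SE 0.08, adjusted p = 0.05099 in limma). The groups did not overlap in either gene. Myc passed with quantile normalization, with scaled arrays, with array weights and without digoxin replicate 2.

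Of 13 measured receptors, factors and kinases reported to act on family genes or on TXNIP, 1 rose and 1 fell, with a median of 0.10. Over all genes 0.947% rose and 0.415% fell. At an unadjusted p under 0.05, 3 were higher and 2 lower, beside 12.3% of all genes in either direction. Ppara, the fatty acid receptor gene, read 0.27, 0.45, 0.34, 0.31 and 0.34 in digoxin replicates 1 to 5, against -0.03, -0.11 and 0.01 in vehicle replicates 1 to 3. Its groups did not overlap, and the difference was 0.38 (SE 0.05, adjusted p = 0.00921 in limma). Nfe2l2, which encodes the antioxidant regulator NRF2, read -0.19, -0.21, -0.01, -0.20 and -0.16 in digoxin replicates 1 to 5, against 0.36, 0.28 and 0.09 in vehicle replicates 1 to 3. It fell by 0.40 on the log2 scale (SE 0.07, adjusted p = 0.0357 in limma), a call that held only without digoxin replicate 3 or vehicle replicate 3 among the 8 fits with 1 array fewer, with a highest adjusted p of 0.121 in limma without vehicle replicate 2. It also missed the threshold with quantile normalization (adjusted p = 0.05001 in limma) and with arrays scaled to a common spread (adjusted p = 0.0514 in limma). The glucocorticoid receptor gene Nr3c1 stood at -0.27 (SE 0.06, adjusted p = 0.101 in limma), and leaving out digoxin replicate 2 brought it past the threshold (adjusted p = 0.0410 in limma). Foxo3 was nearer the threshold with all arrays, at 0.38 (SE 0.09, adjusted p = 0.0933 in limma). It passed with arrays scaled to a common spread (adjusted p = 0.0494 in limma) and without digoxin replicate 1 (adjusted p = 0.0447 in limma). The groups did not overlap in Nr3c1 or in Foxo3.

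**Figure D4:**
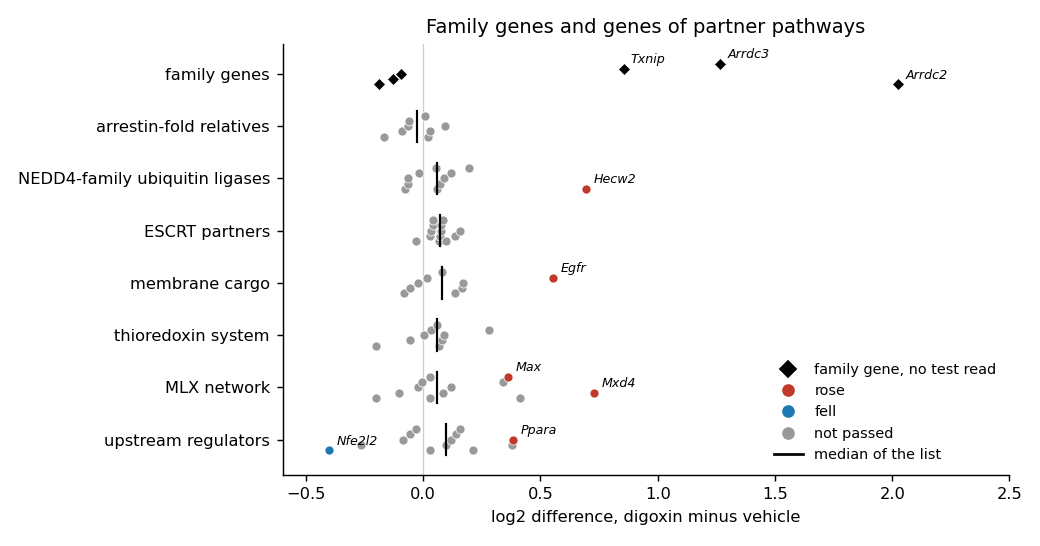
Log2 differences, digoxin minus vehicle, of the 6 family genes (black diamonds) and of 75 genes in 7 partner and regulator lists (dots), with the list median as a black line. Red dots rose, blue dots fell and grey dots did not pass limma at an adjusted p under 0.05. The 5 that rose and the 1 that fell are named, and Mxd4 had the largest difference of these 6 at 0.73.

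Of the promoter motifs searched on both strands, CCAAT, the box bound by NF-Y, was the one most members held. Upstream windows of 250 bases were available for all 6 members, credited to RefSeq on GRCm38.p6, among 32851 windows of 27025 genes. Arrdc4 held 6 CCAAT matches, Arrdc2 held 3, Txnip and Arrdc5 held 2 each, Arrdc3 held 1 at its first start and Arrdc1 held none. RefSeq gives Arrdc3 2 further starts, and the window of one holds the same match while the other holds none. At least 1 match stood in 33.8% of all windows and at least 3 in 2.79%. In the sequences above, those of Arrdc2 begin 7, 126 and 250 bases before the start, all on the opposite strand.

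Txnip alone among the members held GTAAACA, which begins 121 bases before its start and occurs in 3.17% of windows. It also held 1 match to a loose form of the carbohydrate response element, which MondoA or ChREBP binds with MLX. It is a pair of CACGNG motifs set 5 bases apart, and it runs from 85 to 69 bases before the start. That pattern occurred in 15 of the 32851 windows (0.0457%), and its strict form, a pair of CACGTG motifs at the same spacing, in none of them. Arrdc4 held the E-box CACGTG, from 193 to 188 bases before its start, which occurs in 6.02% of windows.

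No member window held AGAACA, the half-site of the glucocorticoid receptor element, which stood in 16.1% of windows. None held the full glucocorticoid response element, AGAACA and TGTTCT set 3 bases apart (0.00913% of windows), or the cAMP response element TGACGTCA (1.55%). No matches in the member windows overlapped each other. A match is a description of the letters, and its absence says only that they are not in these 250 bases. CCAAT and the loose paired pattern were searched after the sequences had been read. CCAAT was found in members that were higher in digoxin hearts and also in Arrdc4 and Arrdc5.

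**Figure D5:**
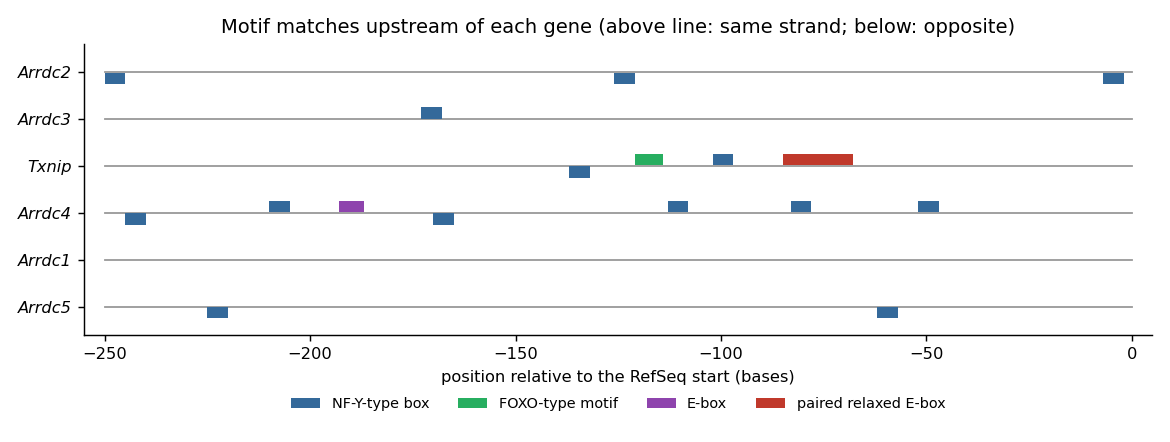
Motif matches, with CCAAT drawn as the NF-Y-type box, in the 250 bases before the RefSeq start of each family gene, with the distance from the start on the horizontal axis. Bars above a line are on the strand of the gene and bars below it on the opposite strand. Arrdc4 holds 6 CCAAT matches and Arrdc2 holds 3, and the paired E-box-like match stands only in Txnip, from 85 to 69 bases before the start.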

How the data were processed

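RNA from 8 mouse hearts, 5 digoxin and 3 vehicle, was measured on Affymetrix Mouse Gene 2.0 ST arrays. The authors normalised the deposited values with Robust Multi-array Average according to the series design text. The submitters' processing notes name limma. No version of either is given in the sources used here. The authors' deposited log2 table has a separate centre for every probe set, and neither the centre nor the log base is stated with it. A constant centre cancels in every difference between arrays.

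Of 34351 probe sets, 23521 had 1 gene symbol in the platform annotation, 1814 had several and 9016 had none. Values were averaged per gene (22180 genes). Protein sequences, and the further vehicle heart that the design text counts, were not analysed here. Differences were fitted over all genes with limma 3.58.1 under R 4.3.3 (lmFit, then eBayes, two-sided, no covariate, Benjamini-Hochberg over all genes, threshold 0.05), with 6 residual and 2.75 prior degrees of freedom. The fit was tested on simulated data in which each gene had the same spread on every array. The wider spread of vehicle replicate 3 was therefore not covered. Titles number the samples within groups, so a p value reflects only how much these samples vary. The array file numbers put all vehicle arrays before the digoxin arrays, so treatment and the order of the arrays cannot be told apart.

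The members and lists were chosen with earlier results of these data known. Genes named were the members, list genes past the test (otherwise the 2 of smallest p in a list), and the 5 genes most like each member with a difference of at least 1.5 times, leaving out predicted, small RNA and olfactory or vomeronasal genes. Other list genes were named for their role after their values were seen. Alternatives covered normalization, probe sets, array weights, the variance model, replicate blocks, thresholds and each array left out.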

Additional observations from a re-analysis of the deposited data

Results flagged for a closer look

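In 18 genes, the digoxin arrays were checked for a single array far from the other 4, and 3 genes had one. Chance gives about 1 in 20 such groups. The Txnip value of -0.0258 in digoxin replicate 1 lay below the other digoxin hearts, of which the nearest was at 0.156. The Nfe2l2 value of -0.0145 in digoxin replicate 3 lay above the nearest at -0.16, and the Stam value of 0.121 in the same heart lay above the nearest at 0.0282.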

How the results depend on the processing

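The main fit was not paired, since the titles only number the samples within groups. The fits with a replicate block below are among the 17 alternatives. The correlations of same-numbered deviations were -0.197, -0.0177 and 0.0236, and 0 of 6 samples correlated best with their own number. By the numbers in the array file names the correlations were 0.0184, 0.0422 and -0.151. With only 3 vehicle hearts, neither set of correlations can show or exclude a pairing. With the title number as a replicate block, 11 genes rose and 1 fell, and 0 members rose. With the file name number as the replicate block, 7 rose and 0 fell, and again 0 members rose. Under both blocks the counts that rose were 0 for the ligase, cargo and MLX lists and the regulators, and the regulators that fell were 0. With 2 residual degrees of freedom these fits have little power.

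The differences of the 6 members moved by less than their SD between arrays under all 17 alternatives. Members called lower numbered 1 (Arrdc4) with arrays scaled to a common spread, with array weights, and when digoxin replicate 4 was left out with vehicle replicate 3. Without both of these arrays 218 genes rose and 282 fell, against 210 and 92 with all arrays, and 1 gene of the MLX network rose. With array weights 320 genes fell. At an adjusted p under 0.01, 95 rose and 23 fell, and under 0.1 it was 327 and 166. The MLX count that rose was 4 with quantile normalization and with scaled arrays, where Mlxip and Myc passed too. The regulators that fell numbered 0 under both, and those that rose numbered 2 with scaled arrays, with Foxo3. With the atrial covariate 1 MLX gene fell (Mnt) and 0 regulators fell. With 1 array left out, the genes that rose numbered 123 to 185 and those that fell 29 to 189, the lowest without digoxin replicate 5 and vehicle replicate 2 and the highest of both without vehicle replicate 3. The causes were not tested. The ligases that rose numbered 0 to 1, the MLX genes 1 to 2, and the regulators 1 to 2, while the regulators that fell numbered 0 to 1. Centred values give no signal over background.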

Other observations

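A second probe set, annotated to both Txnip and Gm15441, was left out of the Txnip value because it names more than 1 gene. It read -0.27, 0.12, 0.16, 0.18 and 0.40 in digoxin replicates 1 to 5, against -0.04, -0.63 and -0.21 in vehicle replicates 1 to 3. The groups overlapped, and the difference was 0.41 on the log2 scale (SE 0.17, 95% interval 0.02 to 0.80, adjusted p = 0.43 in limma over all probe sets). Digoxin replicate 1 was the lowest digoxin heart and vehicle replicate 2 the lowest vehicle heart on this probe set, as on the one for Txnip alone. RefSeq places Gm15441 on chromosome 3 at 96555768 to 96566801, so that it spans Txnip.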
